A study of Mus musculus with 6 samples.

Results

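*Tnmd*-positive cells made up 1193 of the 16707 cells that passed the filters at Day 10 of Digits in a Dish (DID) culture, 641 of 8350 in replicate A and 552 of 8357 in replicate B. A cell was kept with at least 3000 UMIs (unique molecular identifiers, each counting 1 captured transcript), at most 7500 detected genes and at most 25% of its UMIs from mitochondrial genes. The cells were chosen by their own UMI counts, as those with at least 3 *Tnmd* UMIs and fewer than 5 *Prg4* UMIs, and were compared with all other kept cells of the same library. DID cultures were grown in serum-containing medium from wild-type CD-1 mouse cells, dissociated from pooled distal forelimb mesenchyme of E11.5 embryos and seeded as dense suspensions. No treatment, sort or mutation separates the cultures, and 2 independent cultures (replicates A and B) were captured per time point, after 2, 7 or 10 days. The 6 libraries held 54126 kept cells, with a median of 12899 to 29354 UMIs per cell. At Day 10 the *Tnmd*-positive cells had a median of 32174 and 31312 UMIs in replicates A and B, against 29019 and 27610 in the other cells. The replicate cultures of Day 10 shared 19 barcodes, none of which was that of a *Tnmd*-positive cell in both.

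*Tnmd* encodes tenomodulin, a transmembrane glycoprotein of tenocytes, the fibroblasts that build tendon. Tendon cells of the limb arise from mesenchyme that expresses *Scx*, a basic helix-loop-helix transcription factor, and TGF-beta and FGF signals are known to maintain it. The cells then lay down fibrils of type I collagen, whose growth is set by minor collagens and by small leucine-rich proteoglycans such as fibromodulin and decorin.

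*Tnmd* and *Prg4* chose the cells and are given as a description. *Tnmd* stood at 262 and 270 CPM (UMIs of the gene per 1000000 UMIs of the class) in the *Tnmd*-positive cells of replicates A and B, and at 4.52 and 3.85 CPM in the other cells. A *Tnmd*-positive cell had a median of 6 and 7 *Tnmd* UMIs and at most 73 and 57, so the level varied widely among cells that all passed the limit. Exactly 3 *Tnmd* UMIs, the lowest number allowed, were found in 115 and 116 of them. Cells just under the limit, with 2 *Tnmd* UMIs, numbered 176 and 170. Their *Scx* stood at 77.7 and 81.5 CPM and their *Acan* at 374 and 329 CPM, against 101 and 89.8 CPM of *Scx* and 220 and 228 CPM of *Acan* in the cells with 3. Cells with 4 *Tnmd* UMIs had 96.6 and 58.6 CPM of *Scx* and 129 and 304 CPM of *Acan*. The order thus continued only for *Acan* in replicate A. Only 13 and 8 cells had at least 3 *Tnmd* UMIs together with 5 or more *Prg4* UMIs.

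The share of *Tnmd*-positive cells was 7.68% (exact 95% binomial interval 7.11 to 8.27) in Day 10 replicate A and 6.61% (6.08 to 7.16) in replicate B. The Day 7 libraries gave 3.57% and 3.80% and the Day 2 libraries 3.56% and 3.06%, so both Day 10 libraries were above all 4 earlier ones. Depth differs between the libraries, and the share of cells with a *Tnmd* UMI was therefore also taken after each cell was thinned to 3000 UMIs. Thinned, the Day 10 shares were 5.37% and 4.58%, those of Day 7 were 3.08% and 3.39% and those of Day 2 were 2.27% and 4.91%. The Day 10 libraries stayed above those of Day 7, while Day 2 replicate B, the shallowest library, reached the Day 10 values. Before thinning, 3.91% and 5.71% of the cells of the Day 10 immune gate, which should lack the gene, held a *Tnmd* UMI. That gate was not cleared of *Tnmd*-positive cells and held 4 and 2 of them. The binomial intervals cover counting error only, and cells of 1 library are not replicates, so the shares were not tested.

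**Figure D1:**
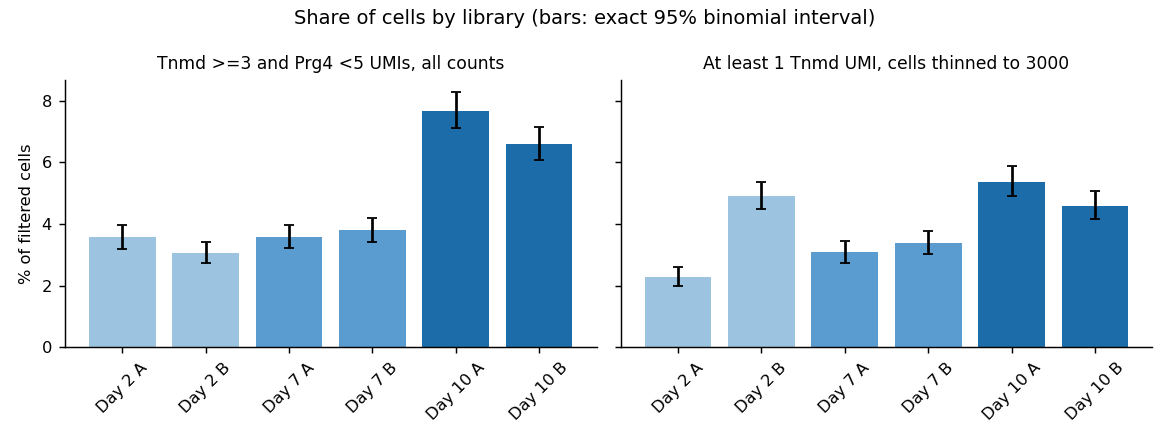
Share of kept cells by library on the vertical axis in percent, with exact 95% binomial intervals as error bars. The left panel gives *Tnmd*-positive cells from all counts, where both Day 10 libraries (7.68% and 6.61%) stand above the others, and the right panel cells with a *Tnmd* UMI after thinning to 3000 UMIs, where Day 2 replicate B (4.91%) reaches them.

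The label of these cells as tenocytes was checked against *Scx*, *Meox1* and *Steap4*, which were named for them with earlier results of these data known and give no independent support. *Scx* stood at 91.9 and 91.4 CPM against 61.3 and 57.4 CPM in the other cells of replicates A and B. Its log2 fold change was 0.62 ± 0.03 (n = 2 libraries, adjusted p = 8.44e-08 by edgeR's quasi-likelihood test). The value after ± is a standard error of the fit, which borrows spread across genes, and not the spread between the libraries. *Meox1*, a homeodomain transcription factor, stood at 79.4 and 79.8 against 33.8 and 32.3 CPM, with a log2 fold change of 1.26 ± 0.04. *Steap4*, a metalloreductase of iron and copper, stood at 22.0 and 20.3 against 4.42 and 5.06 CPM, with a log2 fold change of 2.16 ± 0.09. Each of the 3 genes was therefore higher in the *Tnmd*-positive cells of both libraries. The larger difference of *Tnmd* itself was set by the choice of the cells. Over all 16764 genes tested, 15.0% were called higher and 14.3% lower (29.4% in either direction), so a call by itself sets no gene apart.

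*Scx* was not particular to these cells. *Prg4*-positive cells (at least 5 *Prg4* and fewer than 3 *Tnmd* UMIs, 385 and 355 cells), which carry the joint lubricant lubricin, had more of it, at 112 and 121 CPM. Their *Meox1* stood at 32.1 and 30.7 CPM and their *Steap4* at 0.812 and 1.21 CPM, both below the *Tnmd*-positive cells in each library. *Acan*-positive cells (at least 5 *Acan* UMIs, neither *Tnmd*- nor *Prg4*-positive, 3059 and 3111 cells) had 20.0 and 20.7 CPM of *Scx*, 9.10 and 10.3 of *Meox1* and 4.23 and 4.73 of *Steap4*. These differences between gates were not tested. *Scx* was thus highest in the *Prg4*-positive cells, then in the *Tnmd*-positive cells, then in the others, with no overlap between the replicates of neighbouring groups.

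**Figure D2:**
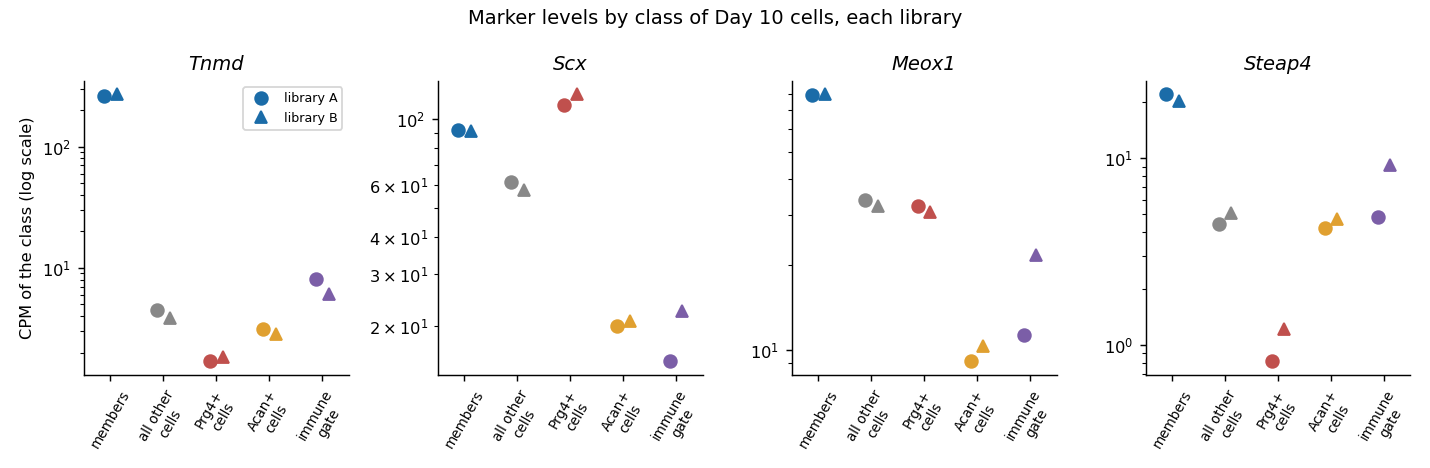
Level of *Tnmd*, *Scx*, *Meox1* and *Steap4* in CPM (log axes) in 5 classes of Day 10 cells, with replicate A as circles and replicate B as triangles. *Tnmd*-positive cells ("members") are highest for *Tnmd*, *Meox1* and *Steap4*, and second to *Prg4*-positive cells for *Scx* (91.9 and 91.4 against 112 and 121 CPM).

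A *Scx* UMI was found in 73.9% and 66.3% of the *Tnmd*-positive cells, and after thinning to 10000 UMIs in 46.4% and 44.6%, against 32.6% and 31.5% of the other cells. The immune gate, cells with at least 3 UMIs of the myeloid adaptor *Tyrobp*, was taken as a rough background. It held 4 and 2 of the *Tnmd*-positive cells themselves, so its shares do not measure free RNA alone. There the thinned *Scx* share was 5.69% and 10.0%. At the same 10000 UMIs, 30.4% of 629 *Tnmd*-positive cells of replicate A and 30.02% of 543 of replicate B showed none of *Scx*, *Meox1* and *Steap4*, and 12 and 9 shallower cells were left out. *Scx* with *Meox1* but no *Steap4* was found in 21.0% and 21.9%, *Steap4* alone in 7.79% and 9.76%, and all 3 genes together in 2.07% and 1.10%. The genes named for the cells were therefore seen in different combinations. The shares of the more common ones were close in the cultures, while *Scx* with *Steap4* alone was found in 2.86% and 1.29%. An absent UMI at this depth does not show an absent transcript.

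Transcription factors of tendon and limb connective tissue were mostly higher. Of the 12 on the list, which holds *Scx* and *Meox1* themselves, 9 were called higher, none lower, with a median log2 fold change of 0.59 against -0.0089 over all genes tested. *Eya2*, a transcriptional coactivator and phosphatase, stood at 14.7 and 15.3 against 6.87 and 5.83 CPM (1.23 ± 0.09). *Egr2*, a zinc-finger factor that acts on tendon collagen genes, stood at 16.1 and 17.1 against 7.89 and 8.55 CPM (1.01 ± 0.07), and *Egr1* at 262 and 282 against 198 and 221 CPM (0.37 ± 0.02). *Egr1* is also 1 of 11 dissociation response genes, of which 5 were called higher and 2 lower here, and the part of that response was not tested. *Mkx*, the Mohawk homeobox gene of tendon, was low, at 8.63 and 11.3 against 6.98 and 7.01 CPM. Its log2 fold change of 0.49 ± 0.10 (adjusted p = 0.0037) changed to -0.075 when every cell was thinned to 3000 UMIs. *Six2*, *Eya1* and *Etv5* did not pass the test.

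The collagens of tendon moved mostly in the same direction by smaller amounts. Of 12 fibrillar and fibril-associated collagens, 10 were called higher and 2 lower, with a median log2 fold change of 0.23. *Col1a1* stood at 3969 and 3484 against 3302 and 2924 CPM (0.25 ± 0.02), *Col3a1* at 914 and 884 against 728 and 625 CPM (0.40 ± 0.05) and *Col12a1*, a collagen that coats fibrils, at 598 and 601 against 436 and 406 CPM (0.50 ± 0.03). *Col11a1*, a fibril collagen that cartilage shares, was at 1169 and 1193 against 2229 and 2163 CPM (-0.90 ± 0.02), and *Col16a1* was the other collagen called lower. All 4 perichondrium markers (*Thbs2*, *Col1a1*, *Fbn1* and *Fbn2*) were called higher as well, with a median of 0.32. *Col1a1* lost its call without the library term and *Col3a1* at a limit of 5 *Tnmd* UMIs. Thinning turned the log2 fold change of *Col5a1*, the smallest of the 10, from 0.09 to -0.12.

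Of 18 tendon proteoglycans and glycoproteins, 13 were called higher and 2 lower, with a median of 0.71. *Postn* (periostin) stood at 718 and 712 against 317 and 277 CPM (1.26 ± 0.05), *Fmod* (fibromodulin) at 119 and 128 against 75.4 and 66.4 CPM (0.79 ± 0.10), *Dcn* (decorin) at 96.3 and 112 against 65.6 and 68.7 CPM (0.62 ± 0.04) and *Abi3bp* at 222 and 232 against 119 and 113 CPM (0.95 ± 0.03). The classes did not overlap for any of these, although *Fmod* lost its call without the limit on *Prg4* or the filter on low counts and *Postn* in cells of 10000 to 40000 UMIs. *Kera* and *Cilp*, also called, stayed under 1 CPM in both classes. *Comp*, a pentameric matrix protein of tendon and cartilage, was at 234 and 226 against 863 and 779 CPM (-1.84 ± 0.03), and *Fibin* at 60.6 and 57.2 against 151 and 150 CPM (-1.36 ± 0.03). *Thbs4*, a thrombospondin of mature tendon, was at 44.5 and 52.6 against 18.1 and 12.7 CPM, but its log2 fold change of 1.65 ± 0.34 did not pass the test (adjusted p = 0.195). *Chodl* stood at 4.98 and 13.6 against 2.70 and 1.44 CPM and did not pass it either.

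Enzymes of collagen processing went the other way more often, with 7 called higher, 12 lower and a median of -0.17 for 20 genes. The prolyl hydroxylase subunits *P4ha1* and *P4ha2* stood at 192 and 191 against 274 and 292 CPM (-0.57 ± 0.03) and at 82.6 and 79.6 against 158 and 151 CPM (-0.94 ± 0.03). *Pcolce2*, an enhancer of procollagen cleavage, was at 43.8 and 42.0 against 170 and 165 CPM (-1.97 ± 0.03), whereas its relative *Pcolce* was at 755 and 753 against 602 and 581 CPM (0.34 ± 0.02). The cross-linking enzymes divided as well, with *Lox* and *Loxl1* called higher and *Loxl2*, *Loxl3* and *Loxl4* lower.

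The other cells include many chondrocyte-like cells, and cartilage genes were the clearest list on the lower side. Of 17, 16 were called lower and none higher, with a median of -1.91. *Acan* (aggrecan) was at 168 and 180 against 778 and 698 CPM (-2.09 ± 0.09), and *Col2a1* at 1203 and 1463 against 5948 and 5604 CPM, a difference of -2.13 ± 0.17 that did not pass the test (adjusted p = 0.0984). Cartilage RNA was still found in the *Tnmd*-positive cells, of which 131 of 641 and 120 of 552 had at least 5 *Acan* UMIs. Bone markers were called lower for 3 of 8 and higher for 1. *Spp1* (osteopontin), the most abundant of them, stood at 1648 and 1784 against 1422 and 1508 CPM (0.22 ± 0.02), and *Alpl* (alkaline phosphatase) at 36.5 and 46.0 against 89.0 and 100 CPM (-1.21 ± 0.04). The defining markers of muscle and endothelium summed here were near 0 in both classes, and immune genes were low. The summed level of *Myod1*, *Myog* and *Ttn* was 0.0445 and 0.214 CPM, against 0.156 and 1.71 CPM in the other cells. That of *Pecam1*, *Cdh5* and *Tek* was 0.400 and 0.854 against 0.294 and 0.471 CPM. The immune genes *Tyrobp*, *Fcer1g*, *C1qa* and *Ptprc* summed to 18.7 and 9.40 against 79.6 and 98.4 CPM. Some other genes of the muscle and endothelial lists were not near 0. *Des* stood at 15.5 and 16.8 against 18.3 and 20.1 CPM (called lower) and *Tnnt1* at 3.38 and 3.47 against 2.06 and 3.77 CPM (not called). *Cd34* stood at 12.4 and 18.2 against 3.86 and 4.88 CPM (called higher). Doublets were neither called nor removed, and their part in these values was not tested.

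**Figure D3:**
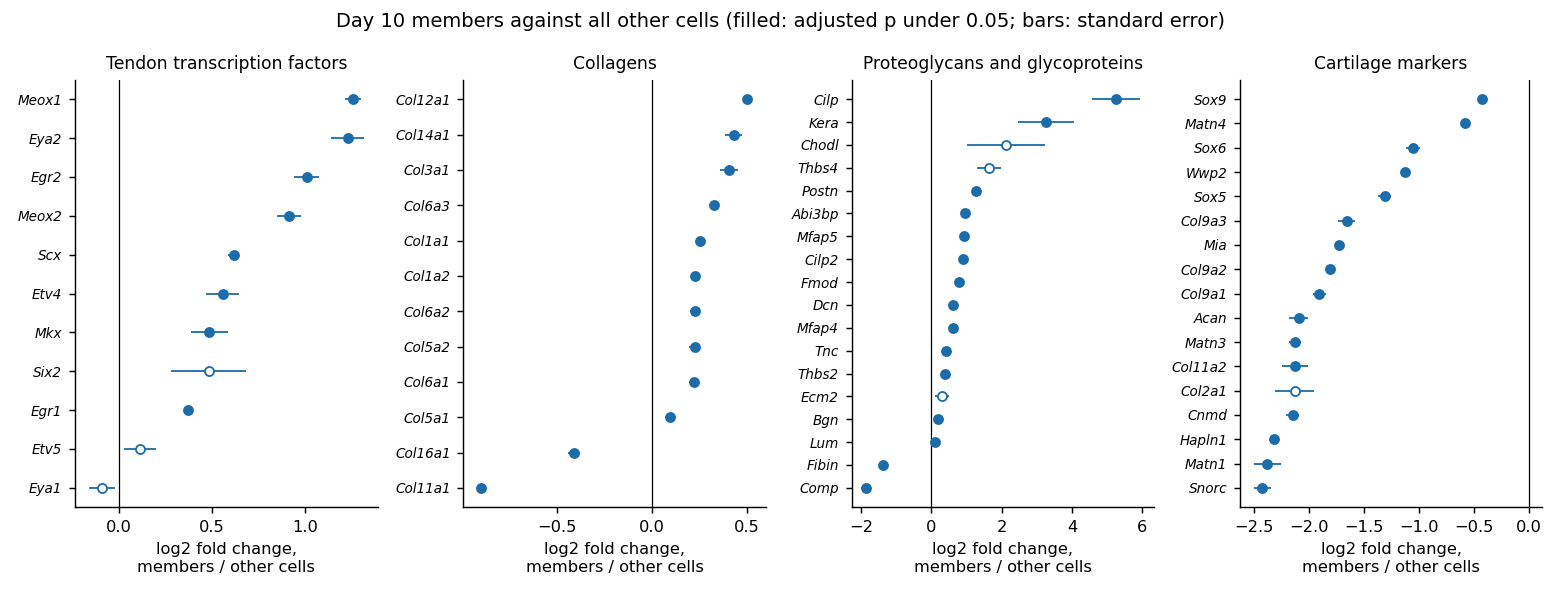
Log2 fold change of *Tnmd*-positive over other cells at Day 10 (horizontal axes) for 4 gene lists, without 1 transcription factor that is not reported here, with standard errors as bars and filled points for adjusted p under 0.05. Transcription factors, collagens and glycoproteins lie mostly right of 0 (medians 0.59, 0.23 and 0.71), and cartilage markers lie left of it (median -1.91).

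Among signalling genes, FGF pathway members were called higher for 8 of 12 and lower for 1. The ligand *Fgf9* stood at 10.8 and 14.8 against 3.70 and 4.21 CPM (1.68 ± 0.10). The feedback genes *Spry4* and *Dusp6* stood at 11.9 and 13.7 against 7.34 and 7.84 CPM (0.74 ± 0.08) and at 39.0 and 34.9 against 22.8 and 21.6 CPM (0.73 ± 0.05). *Fgfr3*, the receptor of growth plate cartilage, was at 18.0 and 19.9 against 89.6 and 82.9 CPM (-2.20 ± 0.06). TGF-beta genes divided, with 4 called higher, 3 lower and 9 not called. *Tgfb3* was at 76.4 and 65.7 against 50.3 and 46.5 CPM (0.55 ± 0.04), *Tgfb2* at 66.3 and 66.6 against 121 and 111 CPM (-0.82 ± 0.03). Of 17 BMP and GDF genes, 3 were called higher and 8 lower, among them the antagonists *Nog*, at 21.5 and 23.8 against 41.1 and 41.0 CPM (-0.87 ± 0.05), and *Grem1*, at 19.3 and 15.8 against 45.1 and 43.9 CPM (-1.35 ± 0.06). Secreted WNT modulators were called higher for 4 of 12 and lower for 7. *Sfrp1*, a WNT antagonist, stood at 27.6 and 23.8 against 7.55 and 7.61 CPM (1.76 ± 0.07) and *Rspo2*, a WNT enhancer, at 39.0 and 28.8 against 17.1 and 12.6 CPM (1.18 ± 0.05), while *Frzb*, another antagonist, was at 26.1 and 28.2 against 58.8 and 55.4 CPM (-1.09 ± 0.05).

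The genes with the largest changes at 10 CPM or more included *Pappa2*, a protease of insulin-like growth factor binding proteins, at 16.1 and 13.1 against 1.60 and 1.502 CPM (3.22 ± 0.12). *Igf1*, the growth factor itself, stood at 305 and 280 against 74.8 and 71.1 CPM (2.00 ± 0.02), and at 42.3 and 36.0 CPM in *Prg4*-positive and 47.7 and 51.1 CPM in *Acan*-positive cells. *Cpxm2*, *Ccn3*, *Apod*, *Pcp4*, *Adam23* and *Scube2* had log2 fold changes of 1.80 to 2.18, and *Gpha2* one of 2.33. On the lower side, *Panx3*, a channel of hypertrophic cartilage and bone, was at 15.1 and 18.5 against 92.5 and 91.6 CPM (-2.47 ± 0.07). All 8 cell cycle genes were called higher, with a median of 0.57; *Top2a* was at 121 and 137 against 78.5 and 91.9 CPM. Contractile genes were higher for 6 of 8, with *Tagln* at 2456 and 2515 against 1639.6 and 1654 CPM (0.59 ± 0.02). The *Tnmd*-positive cells were also the deeper ones, as given above. With every cell thinned to 3000 UMIs the number of genes called fell from 4922 to 1613. Thinning also cut the summed UMIs, in the *Tnmd*-positive cells of replicate A from 22472285 to 1923000. In cells of 10000 to 40000 UMIs 3885 genes were called, and by DESeq2's Wald test 2443.

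The *Tnmd*-positive cells were also described by their number of *Tnmd* UMIs. Cells with 3 to 4, 5 to 9 and 10 or more *Tnmd* UMIs had 28.4, 36.3 and 68.3 CPM of *Thbs4* in replicate A and 37.6, 29.1 and 93.9 CPM in replicate B. *Fmod* stood at 103, 109 and 145 CPM in replicate A and at 108, 126 and 149 CPM in replicate B. Both genes were highest in the cells with the most *Tnmd*, in each library. *Scx* stood at 98.7, 74.97 and 103 CPM and at 79.5, 86.2 and 109 CPM, also highest in the top stratum of each library. *Steap4* stood at 26.6, 13.9 and 26.1 CPM and at 21.4, 19.6 and 20.1 CPM. It was lowest in the middle stratum of each library and did not rise steadily with *Tnmd*. *Top2a* was highest in the top stratum too (149.6 and 163 CPM) and *Acan* lowest there (119 and 141 CPM). The strata had median depths of 30238 to 32752 UMIs. They divide the same cells that the *Tnmd* limit chose, and no test was made.

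The *Tnmd*-positive cells were then divided by *Scx*. At least 2 *Scx* UMIs were found in 353 and 284 of them, exactly 1 in 121 and 82, and none in 167 and 186. *Scx* itself stood at 147 and 154 CPM against 0 by this choice. *Tnmd* was alike in level on both sides, at 268 and 269 CPM in the cells with *Scx* and 259 and 293 CPM in those without. The cells with *Scx* had a median of 34243 and 33500 UMIs and those without 26660 and 27493. Of 12200 genes tested, 7.71% were called higher with *Scx* and 7.84% lower, 15.5% in all.

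*Meox1* and *Steap4*, both enriched in *Tnmd*-positive cells as a whole, went opposite ways. *Meox1* stood at 93.8 and 102 CPM with *Scx* and at 47.0 and 38.2 CPM without, a log2 fold change of 1.23 ± 0.09 (adjusted p = 1.39e-33, edgeR quasi-likelihood). *Steap4* stood at 13.5 and 9.07 CPM with *Scx* and at 44.5 and 40.4 CPM without (-1.89 ± 0.12, adjusted p = 1.5e-40). In both libraries the 2 sides did not overlap for either gene. Both calls held under all 11 alternatives that gave a test, the thinned cells and the cells without *Acan* included. The cells were thinned after the division by their full *Scx* counts, so thinning does not undo the part of depth in that division.

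The promoters of *Tnmd*, of *Steap4* and of *Chodl*, the last a C-type lectin gene that was called higher with *Scx*, are shown because scleraxis is known to bind E-boxes. They are 300 bases each from RefSeq (GRCm38.p6, plus strand, 250 bases before to 50 after the start), and capitals mark the E-box letters CANNTG, which read the same on both strands.
Tnmd (chrX:133850758-133851057): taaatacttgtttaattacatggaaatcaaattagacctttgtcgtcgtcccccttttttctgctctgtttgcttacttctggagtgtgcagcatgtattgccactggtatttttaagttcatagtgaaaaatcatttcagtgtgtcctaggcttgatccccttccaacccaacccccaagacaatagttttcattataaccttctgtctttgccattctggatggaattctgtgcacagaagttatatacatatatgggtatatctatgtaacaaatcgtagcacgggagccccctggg
Steap4 (chr5:7960222-7960521): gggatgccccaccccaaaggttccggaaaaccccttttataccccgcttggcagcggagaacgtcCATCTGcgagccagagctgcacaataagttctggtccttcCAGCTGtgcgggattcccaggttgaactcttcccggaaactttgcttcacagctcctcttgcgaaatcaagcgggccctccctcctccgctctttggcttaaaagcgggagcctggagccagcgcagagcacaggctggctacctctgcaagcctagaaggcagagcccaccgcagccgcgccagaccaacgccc
Chodl (chr16:78930698-78930997): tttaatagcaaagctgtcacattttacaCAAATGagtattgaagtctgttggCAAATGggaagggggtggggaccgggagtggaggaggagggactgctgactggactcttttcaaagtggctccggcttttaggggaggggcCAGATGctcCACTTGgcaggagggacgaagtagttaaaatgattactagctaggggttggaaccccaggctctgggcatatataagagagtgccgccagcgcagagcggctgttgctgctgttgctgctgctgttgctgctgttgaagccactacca
The *Tnmd* window holds 0 such matches, the *Steap4* window 2 and the *Chodl* window 4. Of 32851 promoter windows of this length, 72.3% hold at least 1, 39.6% at least 2 and 6.49% at least 4. A match describes letters only. The set of promoter windows used here had no entry for *Scx*, *Meox1* and *Prg4*, although these are annotated genes, so theirs are not shown. By the GENCODE vM21 annotation of GRCm38, *Tnmd* spans chrX:133850980-133865577, *Scx* chr15:76457452-76459458, *Meox1* chr11:101877510-101894374 and *Steap4* chr5:7960457-7982213.

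Tendon matrix genes followed *Scx* in part. *Postn* stood at 820 and 900 CPM with *Scx* and 516 and 425 CPM without (0.89 ± 0.07), *Mfap4* at 586 and 628 against 399 and 331 CPM (0.76 ± 0.07) and *Fmod* at 135 and 150 against 93.3 and 88.0 CPM (0.67 ± 0.07). *Bgn* (biglycan) stood at 1748 and 1706 against 1354 and 1175 CPM (0.47 ± 0.07). *Thbs4* was at 53.5 and 66.0 against 32.4 and 27.8 CPM (1.01 ± 0.10), and *Chodl* at 7.39 and 21.2 against 1.26 and 2.74 CPM (2.83 ± 0.27). *Chodl* lost its call without the library term, and *Fmod*, *Thbs4*, *Rspo2*, *Itga11*, *Tgfb3* and *Skil* lost theirs in thinned cells. Of the 122 genes of the lists and of the largest changes that were called in this division, 29 kept the call under every alternative. *Lum* (lumican) went the other way, at 153 and 162 against 233 and 279 CPM (-0.68 ± 0.06), as did *Tnc*, *Comp*, *Abi3bp* and *Fibin*. The list of 18 thus gave 6 higher, 5 lower and a median of 0.12 over the 16 tested. The collagens gave 1 higher, 5 lower and a median of -0.09 for 12.

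Among the transcription factors, *Egr1* was at 233 and 241 CPM with *Scx* against 317 and 355 CPM without (-0.48 ± 0.06), *Egr2* at 12.97 and 11.9 against 21.7 and 26.0 CPM (-0.92 ± 0.14) and *Meox2* at 17.0 and 15.6 against 27.8 and 23.0 CPM (-0.62 ± 0.13). *Egr1* is also a dissociation response gene, and of the 11 genes of that list 5 were called lower with *Scx* (*Egr1*, *Ier2*, *Junb*, *Btg2* and *Zfp36*) and none higher. The part of that response in the result was not tested. The paralogs *Meox1* and *Meox2*, both higher in *Tnmd*-positive than in other cells, thus differed in direction here. *Mkx* was called at 0.54 ± 0.20 (adjusted p = 0.0475) and kept the call under 2 of 10 alternatives.

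Of the signalling lists, 2 FGF genes were called higher with *Scx* and 4 lower of 12, 6 TGF-beta genes higher and 2 lower of 16, and 2 secreted WNT modulators higher and 6 lower of 10 tested. *Fgf9* stood at 13.9 and 19.8 CPM with *Scx* and 7.37 and 7.87 CPM without (1.16 ± 0.18), and *Fgf18* at 7.69 and 8.22 against 1.90 and 0.732 CPM (2.64 ± 0.34). The receptor *Fgfr2* was at 55.2 and 51.9 against 121 and 113 CPM (-1.11 ± 0.08), and the feedback genes *Spry2* and *Spry4* were lower too. *Rspo2* stood at 44.9 and 36.4 against 19.4 and 18.1 CPM (1.13 ± 0.12). The WNT antagonists *Sfrp1*, *Sfrp2*, *Dkk2*, *Wif1*, *Sfrp5* and *Frzb* were lower, *Sfrp1* at 14.9 and 11.8 against 57.5 and 38.8 CPM (-1.82 ± 0.11) and *Dkk2* at 9.35 and 6.23 against 44.0 and 24.0 CPM (-2.09 ± 0.14). *Tgfb3* was at 85.2 and 76.1 against 62.8 and 50.5 CPM (0.53 ± 0.08), *Skil*, a TGF-beta response gene, at 61.5 and 65.3 against 47.2 and 47.0 CPM (0.45 ± 0.09), and *Itga11*, a collagen-binding integrin, at 46.6 and 54.8 against 27.8 and 28.9 CPM (0.85 ± 0.11). Of 15 BMP and GDF genes tested 5 were called lower and none higher, with *Bmp2* at 3.24 and 2.55 against 11.4 and 9.88 CPM (-1.85 ± 0.25).

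Most cartilage and bone markers were lower with *Scx*. *Spp1*, the most abundant bone marker, stood at 1768 and 1758 CPM with *Scx* and 1134 and 1676 CPM without and was not called. Of 8 bone markers 6 were called lower with *Scx* and none higher, with *Alpl* at 22.2 and 21.7 against 72.1 and 94.4 CPM (-1.89 ± 0.10), *Sp7* (osterix) at 3.92 and 3.97 against 13.9 and 18.3 CPM (-2.00 ± 0.21) and *Runx2* at 39.4 and 37.5 against 64.9 and 71.0 CPM (-0.80 ± 0.09). Of 17 cartilage markers 14 were lower and none higher, with a median of -0.98. *Matn4* stood at 116 and 117 against 289 and 270 CPM (-1.25 ± 0.06) and *Acan* at 129 and 117 against 227 and 273 CPM (-0.999 ± 0.08). The hypoxia-associated genes *Ndufa4l2* and *Car9* were at 28.3 and 24.6 against 171 and 166 CPM (-2.65 ± 0.08) and at 12.2 and 4.91 against 59.6 and 30.4 CPM (-2.37 ± 0.13). *Slpi*, a protease inhibitor, had the largest change on this side, at 9.95 and 4.53 against 212 and 52.1 CPM, and in the cells without *Scx* it was higher in replicate A than in B. The chemokine *Cxcl2* was at 15.2 and 14.5 CPM with *Scx* and 0.632 and 0.366 CPM without. Contractile markers were called higher with *Scx* for 5 of 8 and lower for 1, with *Tagln* at 2612 and 2653 against 2449.6 and 2082 CPM (0.24 ± 0.07). The immune gene *Trem2* was called higher at 3.54 and 1.98 against 0.211 and 1.28 CPM, and *Tyrobp* stood at 9.499 and 3.49 against 0.211 and 4.94 CPM and was not called. No cell cycle gene of 8 was called. The part that cartilage, bone and immune RNA or depth have in this division was not tested, beyond the alternatives that follow.

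**Figure D4:**
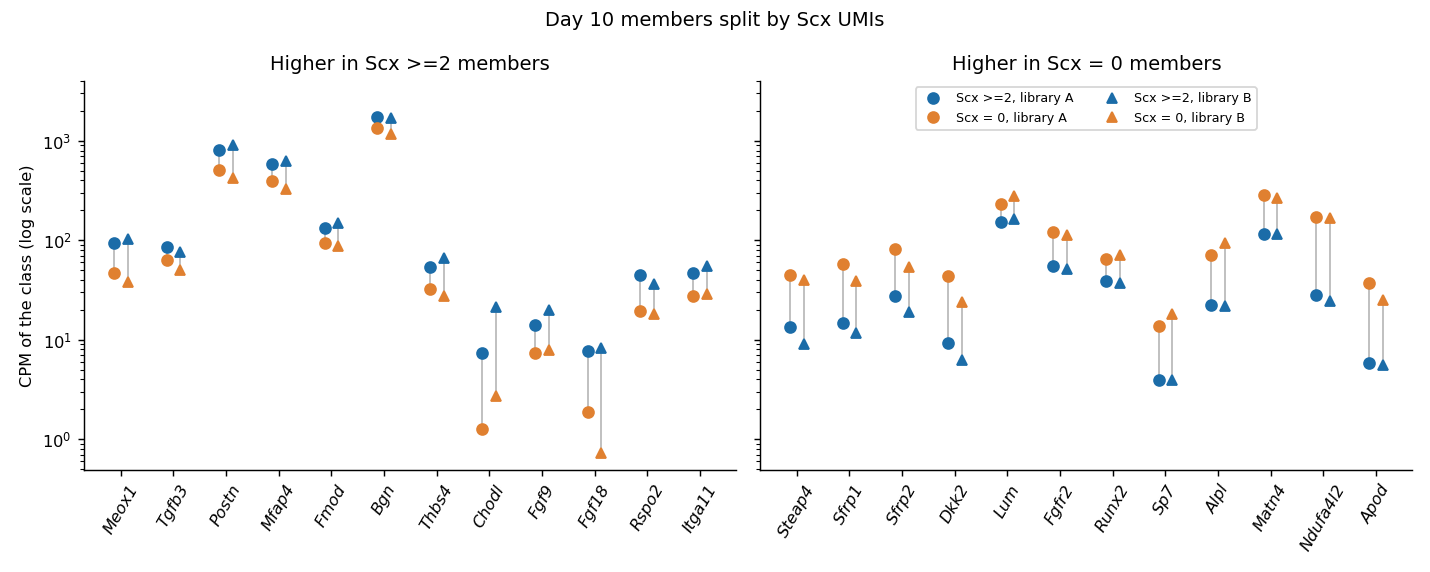
Level in CPM (log axis) of 24 genes called between *Tnmd*-positive cells with at least 2 *Scx* UMIs (blue) and with none (orange), replicate A as circles and replicate B as triangles, a line joining the 2 sides of a library. *Meox1* lies on the side of *Scx* (93.8 and 102 against 47.0 and 38.2 CPM) and *Steap4* on the other (13.5 and 9.07 against 44.5 and 40.4 CPM).

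The number of genes called in this division was 1897, and 278 in thinned cells, 303 by DESeq2's Wald test, 1071 in cells of 10000 to 40000 UMIs and 1111 without the cells with 5 or more *Acan* UMIs. The share called higher with *Scx* was 49.6%, and 36.7% and 38.6% of the calls in thinned cells and by DESeq2.

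Over the days of culture, the same limits gave 319 and 298 *Tnmd*-positive cells at Day 2 and 334 and 356 at Day 7. *Tnmd* stood at 183 and 202, 247 and 260, and 262 and 270 CPM at the 3 days, which the limit itself helps to set. *Scx* was at 269 and 286 CPM at Day 2, 65.3 and 74.4 CPM at Day 7 and 91.9 and 91.4 CPM at Day 10. It was lower at Day 10 than at Day 2 (-1.41 ± 0.07, adjusted p = 6.27e-12, edgeR quasi-likelihood) and higher than at Day 7 (0.38 ± 0.08, adjusted p = 0.0014). *Meox1* was at 49.4 and 56.6, 41.1 and 31.1, and 79.4 and 79.8 CPM, and Day 10 was above both Day 7 (1.14 ± 0.11) and Day 2 (0.77 ± 0.10). *Steap4* was at 0.522 and 0.508 CPM at Day 2, 15.3 and 17.9 CPM at Day 7 and 22.0 and 20.3 CPM at Day 10. It rose from Day 2 (5.52 ± 0.22), but the step from Day 7 (0.34 ± 0.12, adjusted p = 0.0348) was -0.10 without the cells with 5 or more *Acan* UMIs. The 3 genes named for the cells thus each had a time course of their own.

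Against Day 2, 34.2% of the 13323 genes tested were called higher and 32.7% lower, 66.9% in all, so most genes moved. All 12 collagens were called higher at Day 10, with a median log2 fold change of 2.44, as were 19 of 20 genes of collagen processing (median 1.57) and 13 of 18 glycoproteins, of which 16 were tested (median 3.01). *Col1a1* went from 709 and 666 to 3969 and 3484 CPM (2.62 ± 0.09), *Postn* from 24.0 and 30.1 to 718 and 712 CPM (4.91 ± 0.10), *Bgn* from 155 and 133 to 1614 and 1502 CPM (3.61 ± 0.09) and *Dcn* from 5.74 and 8.23 to 96.3 and 112 CPM (4.099 ± 0.13). *Comp* went from 0.174 and 0.508 to 234 and 226 CPM. Cartilage markers were called higher for 14 of 17 (median 2.98), bone markers for all 7 tested (median 3.44) and dissociation response genes for 9 of 11. The cartilage markers *Snorc* and *Matn1* and the bone marker *Ibsp* were among the 10 largest increases. *Snorc* went from 0.870 and 0.102 to 122 and 159 CPM. The part of cartilage and bone RNA in the changes from Day 2 was not tested. The cell cycle went down, with 8 of 8 genes lower (median -1.12) and *Top2a* at 422 and 490 CPM at Day 2 and 121 and 137 CPM at Day 10 (-1.64 ± 0.09). *Bex2*, *Nnat* and *Adamts15* were among the largest decreases, *Nnat* from 144 and 140 to 2.14 and 3.10 CPM (-5.59 ± 0.19). Transcription factors divided, with *Meox2*, *Etv4*, *Eya2*, *Scx* and *Egr1* among those called lower and *Meox1*, *Egr2* and *Eya1* higher.

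Against Day 7, 13.9% were called higher and 14.8% lower, 28.7% in all. Of the 16 glycoproteins tested 7 were called higher, 2 lower and 7 neither, with a median of 0.24. *Bgn* rose from 892 and 917 CPM (0.77 ± 0.08), *Postn* from 400.3 and 439 CPM (0.76 ± 0.08) and *Fmod* from 69.4 and 89.5 CPM (0.62 ± 0.10). Collagen processing genes were called higher for 6 of 20 (*Creb3l1* from 49.0 and 49.9 to 78.7 and 74.5 CPM, 0.62 ± 0.08) and lower for 6, the hydroxylases *P4ha1*, *P4ha2* and *Plod2* among them. *Lum* fell from 254 and 279 to 175 and 202 CPM (-0.51 ± 0.08) and *Fibin* was the other gene called lower, while *Dcn* stood at 105 and 99.6 and then at 96.3 and 112 CPM and was not called. The collagens as a list did not move one way, with 3 higher, 3 lower and 6 not called. All 17 cartilage markers were lower, with a median of -0.65 and *Acan* at 263 and 246 CPM at Day 7 and 168 and 180 CPM at Day 10 (-0.56 ± 0.11). Of 7 bone markers tested *Runx2*, *Sp7* and *Alpl* were higher and none lower, with a median of 1.31 and *Alpl* going from 21.0 and 18.8 to 36.5 and 46.0 CPM (1.04 ± 0.12). Of 11 secreted WNT modulators tested 3 were called higher (*Dkk3*, *Rspo2* and *Rspo3*), 3 lower and 5 neither. *Sfrp1*, *Sfrp2* and *Dkk2* fell, *Dkk2* from 41.6 and 48.9 to 19.4 and 15.6 CPM (-1.38 ± 0.13), while *Rspo2* rose from 16.9 and 15.0 to 39.0 and 28.8 CPM (1.09 ± 0.14) and *Rspo3* from 88.1 and 90.9 to 137 and 150 CPM (0.67 ± 0.08). *Cdkn2a*, which encodes cell cycle inhibitors, had the largest rise among the called genes with a mean of at least 10 CPM and no overlap of the days, from 42.3 and 38.7 to 141 and 146 CPM (1.81 ± 0.08), after 5.13 and 4.37 CPM at Day 2. Of 8 cell cycle genes 6 fell, *Top2a* from 226 and 254 CPM (-0.91 ± 0.09).

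Genes that respond to dissociation and a gene that overlaps ribosomal RNA also differed between the days. Of 11 dissociation genes 8 were higher at Day 10 than at Day 7 and none lower, *Fos* at 360 and 392 against 225 and 276 CPM and *Btg2* at 126 and 131 against 63.3 and 56.3 CPM. *Gm42418* was at 15754 and 14927 CPM at Day 7 and at 1985 and 1891 CPM at Day 10. Their part in the differences was not tested, nor can fewer expressing cells and less RNA per cell be told apart in summed counts. The number of genes called against Day 7 was 3828, and 1931 without Day 7 replicate A, 2075 without Day 7 replicate B, 2182 without Day 10 replicate A and 2268 without Day 10 replicate B.

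**Figure D5:**
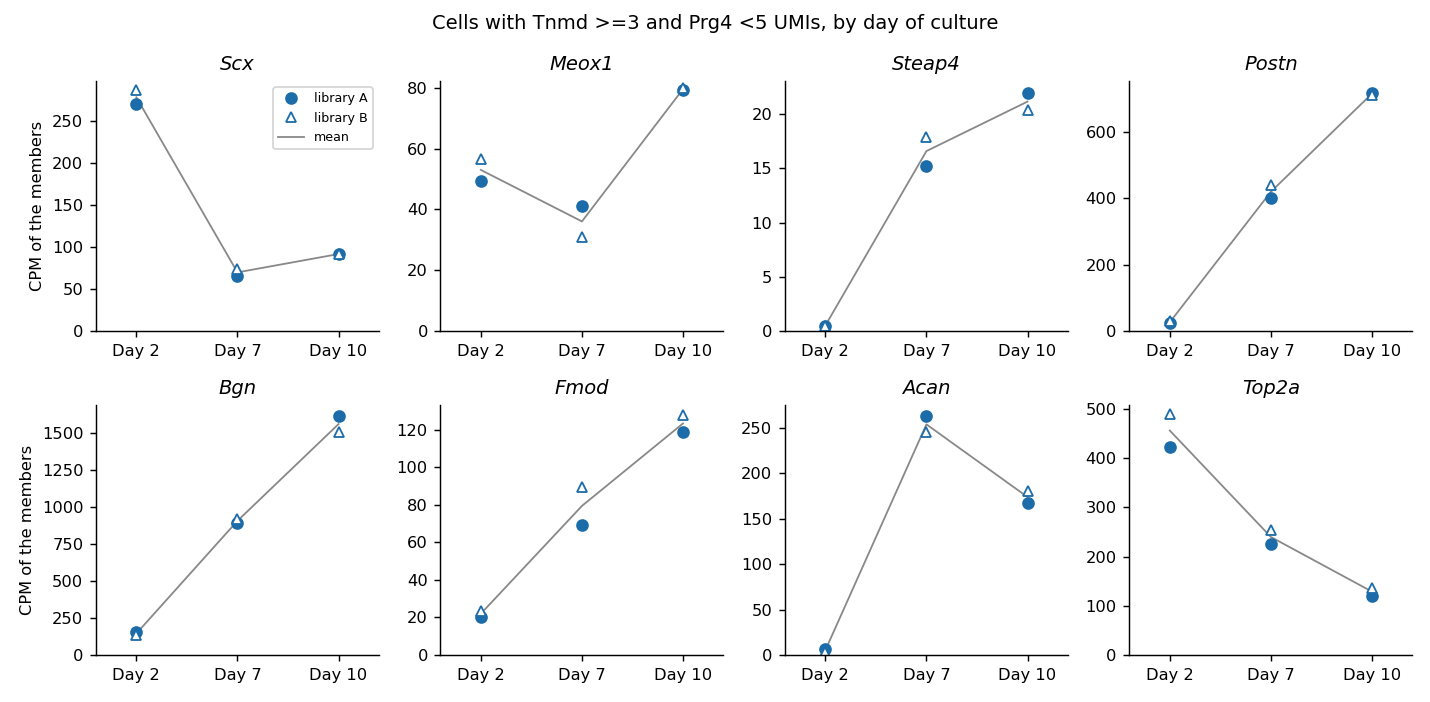
Level in CPM of 8 genes in *Tnmd*-positive cells at Day 2, Day 7 and Day 10, with replicate A as filled circles, replicate B as open triangles and their mean as a line. *Scx* is highest at Day 2 (269 and 286 CPM), *Meox1* at Day 10 (79.4 and 79.8 CPM), *Postn*, *Bgn* and *Fmod* are higher at each later day, and *Top2a* falls.

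Whether the difference between *Tnmd*-positive and other cells itself changed from Day 7 to Day 10 was tested as an interaction, in which 3.89% of 17835 genes were called higher and 5.63% lower, 9.52% in all. Of 12 collagens 6 were called lower and 2 higher, with a median of -0.28. *Col1a2* exceeded the other cells by 0.84 and 1.02 (log2, replicates A and B) at Day 7 and by 0.21 and 0.26 at Day 10, and *Col3a1* by 1.07 and 1.12 and then by 0.33 and 0.50. In the *Tnmd*-positive cells *Col1a2* itself was called higher at Day 10 than at Day 7 (0.29 ± 0.07), while in the other cells it went from 1870.3 and 1750.5 to 3743 and 3472.5 CPM. That call between days was lost without either Day 7 library, without Day 10 replicate A and in cells thinned to 3000 UMIs, with an adjusted p of up to 0.146 (edgeR quasi-likelihood). *Dcn* went from below the other cells at Day 7 (-0.29 and -0.45) to above them at Day 10 (0.55 and 0.71), a difference of 1.05 ± 0.07. In the *Tnmd*-positive cells themselves *Dcn* was not called between these days, as given above, and in the other cells it stood at 128 and 136 CPM at Day 7 and 65.6 and 68.7 CPM at Day 10. *Steap4* exceeded the other cells by 2.61 and 2.88 at Day 7 and by 2.32 and 2.01 at Day 10, and *Scx* and *Meox1* were not called. None of the interaction calls named here held under every alternative. The number of genes called was 1698, with 331 in thinned cells, 1080 without Day 7 replicate B and 1112 without Day 10 replicate B.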

How the data were processed

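Single-cell RNA sequencing (10x Genomics 3' chemistry) of 6 libraries was used. The deposited matrices hold raw UMI counts per gene and barcode, which the authors made, per the submitters' processing notes, with Cell Ranger 6.1.2 and STAR on GRCm38 (mm10). Seurat 4.1.0 is named there for later steps that were not used here. The cells and gene lists were chosen with earlier results of these data known. Named genes are the fixed lists and, per comparison, the 10 called genes with the largest change in each direction, with a mean of at least 10 CPM in 1 class and the same sign in both replicates (between days, no overlap).

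UMIs were summed per library and class and tested with edgeR 4.0.16 in R 4.3.3 (filterByExpr, TMM, robust quasi-likelihood), with Benjamini-Hochberg adjustment over all genes tested and calls at an adjusted p under 0.05. Comparisons within Day 10 and the interaction have the library as a term (a replicate block), and the time comparisons do not. With n = 2 libraries the fits have 1 to 3 residual degrees of freedom and borrow the spread across genes. The borrowed part had 9.722 prior degrees of freedom for *Tnmd*-positive against other cells and 494.7 for the division by *Scx*. Standard errors were derived from the fold change and the test statistic, so they and the p-values rest mostly on borrowed spread. All fold changes are from these fits, and CPM are scaled to the class total without TMM factors. The labels give separate cultures for the replicates. The script was tested on simulated data. Thinning drew UMIs without replacement, and in the fits the class of a cell was set before it, by the full counts. Python 3.11.15, scipy 1.17.1 and DESeq2 1.42.0 were also used. Alternatives were another scaling, DESeq2, no filter, other limits on *Tnmd*, *Prg4*, *Scx*, depth and *Acan*, the filters of the study, the replicate block and leaving out libraries. A few genes of the lists are counted in them but not reported by name here.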

Additional observations from a re-analysis of the deposited data

Results flagged for a closer look

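For 19 of the genes of the marker, transcription factor, collagen and glycoprotein lists, the difference between *Tnmd*-positive and other cells was itself different at Day 10 and at Day 7 (edgeR's quasi-likelihood test of the interaction, adjusted over all genes, of which 9.52% were called). They are 1 of the 3 label markers tested, 2 of 12 transcription factors, 8 of 12 collagens and 8 of 18 glycoproteins, and none of the 19 kept its call under every alternative. Of all 86 genes of the lists and of the largest changes called in this test, 8 did. Values are the change in log2 fold change from Day 7 to Day 10. It was positive for *Dcn* (1.05), *Egr1* (0.52), *Col11a1* (0.39) and *Col16a1* (0.24), of which the last 2 stayed below the other cells on both days. *Egr1* is also a dissociation response gene, and 7 of the 11 genes of that list were called higher in this test and none lower, with a median of 0.43. The part of that response in its value was not tested. *Dcn* itself was not called in *Tnmd*-positive cells between the days (0.02). It was negative for *Col6a1* (-0.25), *Mfap4* (-0.25), *Bgn* (-0.26), *Col5a1* (-0.29), *Thbs2* (-0.34), *Lum* (-0.38), *Cilp2* (-0.41), *Meox2* (-0.46), *Abi3bp* (-0.51), *Col5a2* (-0.52), *Col6a3* (-0.53), *Steap4* (-0.54), *Col3a1* (-0.63) and *Col1a2* (-0.65), all of which were above the other cells in both libraries of both days. *Kera* had 4.17, which rests on 4 and 0 UMIs in the *Tnmd*-positive cells of the Day 7 libraries and 4 and 5 in those of Day 10, so its fitted value depends on the prior count and bounds nothing.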

How the results depend on the processing

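The number of genes called between *Tnmd*-positive and other cells was 4922, and 2443 by DESeq2's Wald test. It was 3885 in cells of 10000 to 40000 UMIs, 1613 in cells thinned to 3000 UMIs and 3419 with no replicate block. The division by *Scx* gave 1897, and 303 by DESeq2, 797 with at least 5 *Tnmd* UMIs, 1071 in cells of 10000 to 40000 UMIs, 278 thinned, 1111 without cells with 5 or more *Acan* UMIs, 1048 with at least 1 *Scx* UMI and 994 with no replicate block. Day 10 against Day 7 gave 3828, and 1947 by DESeq2, 1020 thinned and 3593 with a replicate block. Leaving out 1 library gave 1931 to 4728. Day 10 against Day 2 gave 8909, and 4135 thinned, 8795 with the block and 7943 to 8948 without 1 library. The interaction gave 1698, and 917 by DESeq2 (34.2% of them higher, against 40.8%), 331 thinned (21.5% higher), 417 with no replicate block (31.7% higher) and 1080 to 1925 without 1 library. The labels do not say whether the letters A and B link cultures of different days. Correlations of A minus B between days were -0.0381, -0.0282 and -0.0229, which gave no sign of a link but cannot show that there is none. Leaving out a library within Day 10 left 1 pair and no test. Of the named genes called against other cells, 96 of 168 kept the call under every alternative that gave a test. The call was kept by 57 of 122 named genes against Day 7 and by 135 of 180 against Day 2. The share of *Tnmd*-positive cells, 7.68% and 6.61%, moved to 9.78% and 8.64% at 2 *Tnmd* UMIs and to 5.09% and 4.49% at 5. With the filters of the study it was 6.23% and 5.29%. The thinned share, 5.37% and 4.58%, has another limit, at least 1 *Tnmd* UMI of 3000 and no limit on *Prg4*. Log2 fold changes that reversed against other cells were *Mkx* (-0.075), *Col5a1* (-0.12), *Creb3l1* (0.045) and *Btg2* (-0.043) in thinned cells and *Fgfr2* (-0.17) without *Acan*. In the division by *Scx* they were *Dmp1* (0.049, at least 5 *Tnmd* UMIs) and *Pcolce2* (0.31) and *Matn3* (0.77) without *Acan*. Over time they were *Steap4* against Day 7 (-0.10 without *Acan*), and against Day 2 *C1qb* (4.70) and *C1qc* (6.70) at 5 *Tnmd* UMIs, *Pcolce2* (-0.16 at 10000 to 40000 UMIs, -0.45 without *Acan*), and *Nog* (-0.023), *Sox5* (-0.40) and *Sox6* (-0.45) without *Acan*. In the interaction they were *Pantr1* (-1.96), *Slc13a5* (3.66), *Plod1* (-0.011), *Col2a1* (-0.22) and *Col9a2* (-0.37) in thinned cells. Of the reversed values, those of *Fgfr2*, *C1qb*, *C1qc*, *Sox5*, *Sox6*, *Col2a1* and *Col9a2* passed the test in the alternative but not in the main fit. *Pcolce2* against Day 2 passed it in the main fit and, reversed, without *Acan*. The other reversed values did not pass it in the alternative, so a change of direction is not shown for them. The causes were not tested.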

Other observations

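*Ebf1*, a transcription factor of connective tissue, stood at 122 and 140 CPM in *Tnmd*-positive cells against 60.2 and 65.9 CPM in the others (log2 fold change 1.04 ± 0.03), and within them at 106 and 113 CPM with at least 2 *Scx* UMIs against 144 and 175 CPM with none (-0.52 ± 0.07). *Cd34*, a surface sialomucin of endothelial and stromal progenitor cells, was at 12.4 and 18.2 against 3.86 and 4.88 CPM (1.79 ± 0.09). Of the other endothelial genes, *Tek* was called higher at 0.311 and 0.427 against 0.0519 and 0.044 CPM, *Kdr* was called lower and *Pecam1* was not called, and all 3 were under 1 CPM in both classes. *Wnt16* was among the largest changes with *Scx*, at 23.4 and 28.2 against 9.90 and 11.2 CPM (1.31 ± 0.15), and lost its call in thinned cells. *Bcl11a*, *Spint2* and *Ttll5* were also higher on the side of *Scx*, by 1.37 to 1.47. *Stmn2* rose from Day 7 to Day 10, from 18.4 and 15.7 to 44.4 and 40.1 CPM (1.31 ± 0.19).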
